A study of Mus musculus with 3 samples.

Results

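Adrenergic receptors are the cell surface receptors for noradrenaline and adrenaline, and 8 mouse genes of this family were selected by name: Adra1a, Adra1b, Adra1d, Adra2a, Adra2b, Adra2c, Adrb1 and Adrb3. In the platform annotation used here, 2 of the 8 genes, Adra1b and Adra2c, had probe sets assigned to that gene alone, with 1 probe set for Adra1b and 4 for Adra2c. These 5 of the 45101 probe sets on the mouse4302 Affymetrix array are described below. The other 6 genes were not analysed here, so the values give no account of beta-adrenergic receptor transcripts.

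The samples were 3T3-L1 adipocytes, fat cells obtained by differentiating the mouse 3T3-L1 fibroblasts, that had been treated for 2 h with glucose oxidase, an enzyme that releases hydrogen peroxide as it oxidises glucose. The 3 samples formed 1 group, glucose oxidase replicates 1, 2 and 3, and all 3 shared the cell line and the treatment. Control arrays were not analysed here, so each value is a level after treatment and no value is a response to it. Whether the replicates were separate cultures is not stated, and their spread may therefore be technical only.

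Adrenergic receptors signal through different G proteins. The alpha1 receptors, which include the product of Adra1b, act mainly through Gq and phospholipase C to raise intracellular calcium. The alpha2 receptors, which include the product of Adra2c, act through Gi to lower cyclic AMP, which in fat cells opposes lipolysis. The beta receptors act through Gs to raise cyclic AMP and are known in adipocytes for driving lipolysis through protein kinase A.

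The annotated start regions of both measured genes are shown for reference, since Adra1b has more than 1 annotated start. Use of these starts was not measured. RefSeq, on build GRCm38.p6, gave 1 window for Adra2c and 2 for Adra1b, and each sequence below is the 250 bases before the start, 5′ to 3′ on the strand of the gene. Capitals mark matches on either strand to 7 searched motifs, which were TGACGTCA (the cAMP response element), TGAGTCA (the AP-1 site), TGACNNNGC (the core of the antioxidant response element), CACGTG (an E-box), GGGCGG (the GC box), CCAAT (the CCAAT box) and TATAAA (the TATA box). A match is a description of the letters and not a bound site.
Adra2c, chr5:35278316-35278565, + strand: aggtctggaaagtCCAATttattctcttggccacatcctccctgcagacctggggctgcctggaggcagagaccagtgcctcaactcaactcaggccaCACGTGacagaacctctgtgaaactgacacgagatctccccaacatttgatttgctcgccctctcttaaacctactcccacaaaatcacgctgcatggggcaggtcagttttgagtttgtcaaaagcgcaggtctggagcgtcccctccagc
Adra1b upstream start, chr11:43901238-43901487, - strand: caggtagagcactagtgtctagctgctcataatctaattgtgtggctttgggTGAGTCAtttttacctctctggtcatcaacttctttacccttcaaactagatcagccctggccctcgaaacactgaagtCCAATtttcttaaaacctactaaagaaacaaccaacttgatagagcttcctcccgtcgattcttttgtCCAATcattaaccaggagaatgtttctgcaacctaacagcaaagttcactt
Adra1b downstream start, chr11:43836490-43836739, - strand: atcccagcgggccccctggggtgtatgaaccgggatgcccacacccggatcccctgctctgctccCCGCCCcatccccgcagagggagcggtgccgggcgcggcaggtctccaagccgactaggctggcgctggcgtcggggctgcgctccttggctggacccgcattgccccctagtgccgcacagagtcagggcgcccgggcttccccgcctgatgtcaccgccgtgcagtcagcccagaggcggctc

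The Adra2c window held 1 E-box, whose first base lay 152 bases before the start, and 1 CCAAT box at 237 bases. Of the 32851 windows of this length in the RefSeq table, 6.02% held an E-box of these letters and 33.8% a CCAAT box. The upstream Adra1b window held 1 AP-1 site, at 198 bases before the start, and CCAAT boxes at 119 and 51 bases. An AP-1 site of these letters was in 4.46% of all windows. The downstream Adra1b window, whose start lies 64748 bases nearer the end of the gene, held 1 GC box, on the opposite strand at 185 bases, and 32.7% of all windows held one. None of the 3 windows matched the other motifs searched, the cAMP response element, the antioxidant response element core and the TATA box, which were in 1.55%, 10.2% and 12.4% of all windows.
The base composition of the Adra1b windows differed. The upstream one was 41.6% G and C with 3 CpG dinucleotides, and the downstream one was 72.8% G and C with 22 CpG dinucleotides, more than in 85.2% of all windows. The Adra2c window lay near the median of all windows (52.4% G and C, 6 CpG), at 53.6% G and C and 6 CpG. The annotation does not say which start the single Adra1b probe set reports on.

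Neither Adra1b nor Adra2c was above background in any of the 3 arrays. Background was taken as a log2 intensity of 7.57, the 95th percentile of the mean levels of 86 probe sets that belong to sensory receptor genes (olfactory, vomeronasal and taste). A gene was called above background if any of its probe sets exceeded this level in all 3 arrays. By this rule 54.5% of the 18194 genes with a probe set of their own were above background, against 0 of the 2 receptor genes. A gene with more probe sets had more chances to pass, since 39.3% of genes with 1 probe set were above background and 80.5% of genes with 4, so Adra1b, with 1 probe set, is to be read beside the former share and Adra2c, with 4, beside the latter. Both genes were also below background with the 90th percentile, where the share of all genes above it was 57.5%. Stricter rules could only repeat the call, since no receptor value exceeded 7.57 in any array. By these rules the share of all genes was 48.0% with the 99th percentile and 49.7% with keratin-associated protein and defensin genes as background. It was 43.9% for the median of the probe sets of a gene and 31.5% where every probe set had to pass. With 2 genes the count describes these genes and not the receptor family. In whole-culture RNA, few cells with a transcript and little of it per cell cannot be told apart.

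For Adra1b, the probe set 1422183_a_at had deposited intensities of 128.9, 139.5 and 137.0 in replicates 1, 2 and 3. On the log2 scale these were 7.01, 7.12 and 7.10, with a mean of 7.08 ± 0.06 (SD, n = 3). Replicate 1 was the lowest and all 3 arrays lay below background, the highest of them by 0.44 on the log2 scale. The mean was 1.34 above the median of the background probe sets, which was 5.74, and 73 of the 86 background probe sets were lower. Adra1b therefore lay in the upper part of the range of the background probe sets, where a low transcript level and non-specific signal cannot be told apart.

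For Adra2c, 4 probe sets were measured. The brightest, 1422335_at, had log2 intensities of 7.14, 7.17 and 6.98 in replicates 1, 2 and 3, a mean of 7.10 ± 0.10 (SD, n = 3). Replicate 3 was the lowest, and the highest array was 0.40 below background on the log2 scale. Of the 86 background probe sets, 74 were lower than this one.
The probe set 1435296_at had log2 intensities of 5.92, 5.96 and 5.81, a mean of 5.90 ± 0.07 (SD, n = 3). For 1457328_at the values were 5.50, 5.60 and 5.76, a mean of 5.62 ± 0.13 (SD, n = 3). Both lay close to the median of the background probe sets, with 45 and 40 of the 86 below them. The dimmest, 1439762_x_at, had 4.64, 4.54 and 4.24, a mean of 4.47 ± 0.21 (SD, n = 3), and 20 of the 86 background probe sets were lower. The suffix of its name marks a probe set that can also bind transcripts of other genes.

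**Figure D1:**
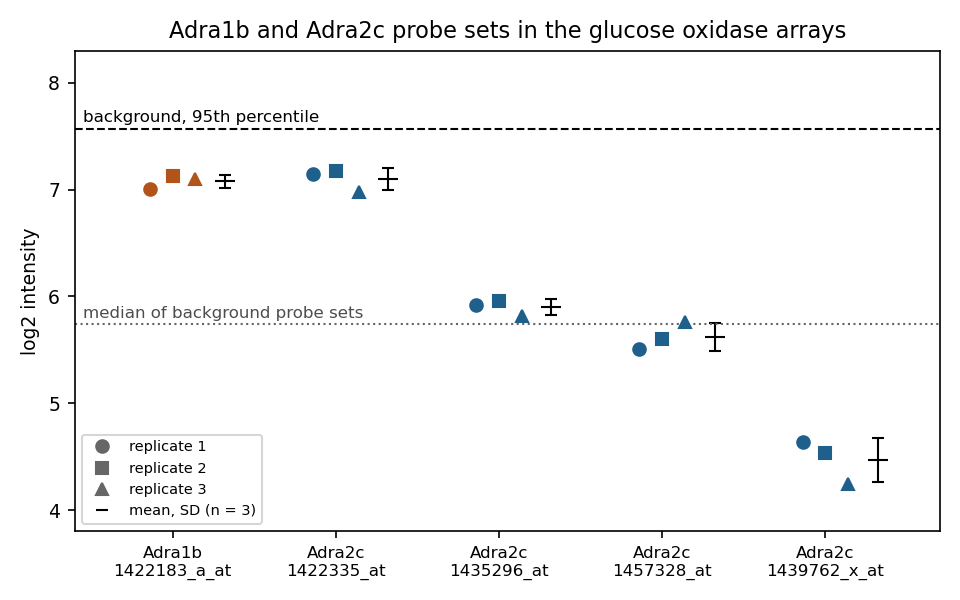
Log2 intensity (y axis) of the Adra1b probe set and the 4 Adra2c probe sets (x axis) in the 3 glucose oxidase arrays, with 1 symbol per replicate and the mean and SD as bars (n = 3). All 15 values lie below the dashed background line at 7.57, and heights of different probe sets are not comparable as transcript levels.

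Probe sets differ in how well they bind their target, and probe sets of 1 gene can detect different transcripts, so the distances between the Adra2c probe sets are not differences in transcript level. The choice of probe set thus set the level given for Adra2c, which was 7.10 by the brightest and 5.76 by the median of the 4, but it did not change the call, since each of the 4 was below background in each array.

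**Figure D2:**
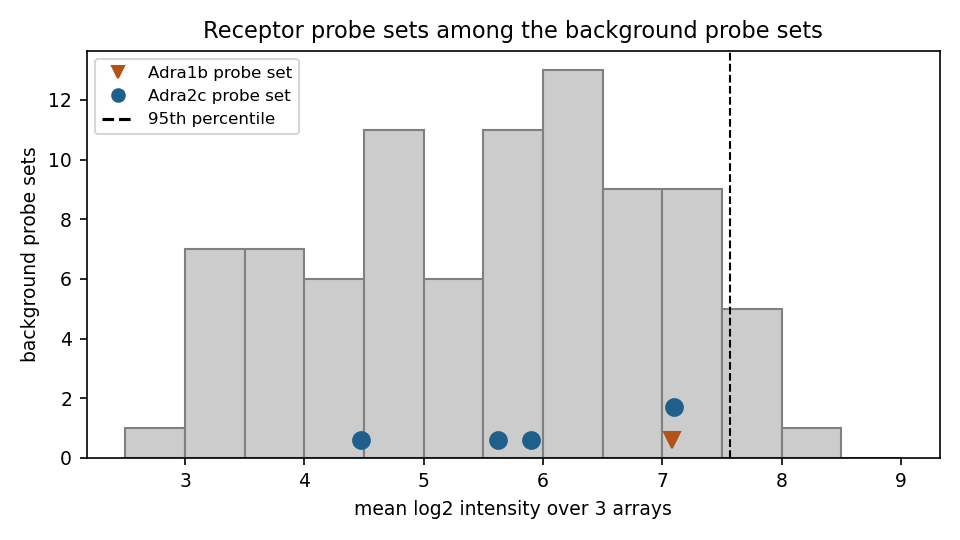
Number of background probe sets (y axis, grey bars) by mean log2 intensity over the 3 arrays (x axis), with the mean of the Adra1b probe set as a triangle and the means of the 4 Adra2c probe sets as circles, set at arbitrary heights. The 5 receptor probe sets fall within the range of the background probe sets, and all are to the left of the dashed line at the 95th percentile, 7.57.

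The replicates did not order the Adra2c probe sets in 1 way. Replicate 3 was the lowest array for 3 of the 4 probe sets and the highest for the fourth, 1457328_at. Relative to the mean of replicates 1 and 2, replicate 3 was at -0.18 for 1422335_at, -0.13 for 1435296_at and -0.35 for 1439762_x_at on the log2 scale, and at 0.20 for 1457328_at.

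The SD between arrays of the 5 receptor probe sets ranged from 0.06 to 0.21 on the log2 scale, with a median of 0.104. The median over the 27570 probe sets of the array that were not above background was 0.080, and over the 17531 above background it was 0.051. Among probe sets within 0.25 of its own level, 36.6% had a smaller SD than the Adra1b probe set, and 74.2% had a smaller SD than 1422335_at. The corresponding shares were 43.7% for 1435296_at, 77.2% for 1457328_at and 96.0% for 1439762_x_at. The widest spread was thus that of the dimmest Adra2c probe set, and the SD of the other 4 lay between the 10th and 90th percentiles of probe sets of like level. The 3 arrays were alike as a whole, with median intensities of 127.6, 126.9 and 126.9 and Pearson's r across all probe sets of 0.998 to 0.999 for the pairs.

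**Figure D3:**
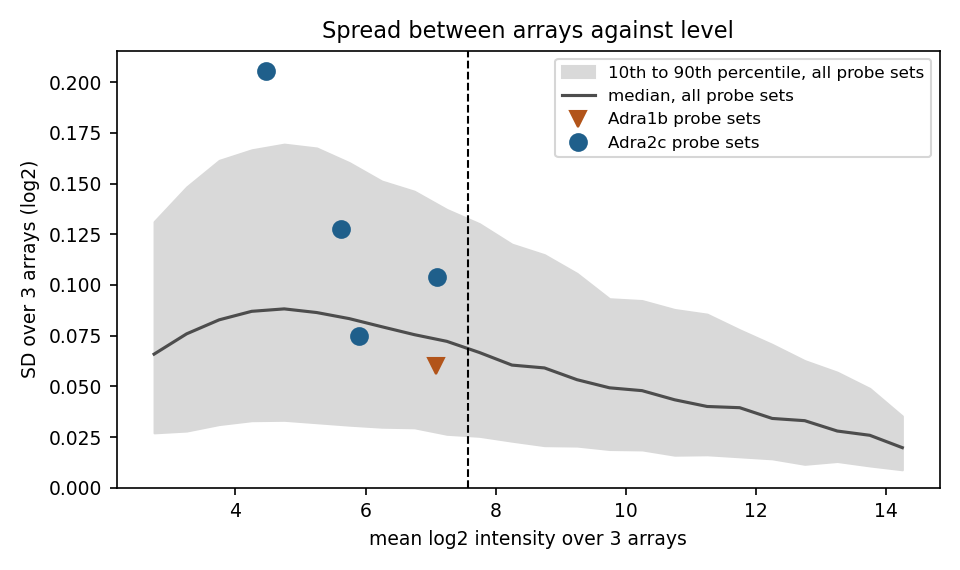
SD of log2 intensity over the 3 arrays (y axis) against the mean log2 intensity (x axis), with the median (line) and the 10th to 90th percentile (grey band) of all probe sets in steps of 0.5, and the Adra1b probe set as a triangle and the 4 Adra2c probe sets as circles. The dimmest Adra2c probe set, at an SD of 0.21, lies above the band, and the other 4 receptor probe sets lie within it to the left of the dashed background line.

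The genes that carry a signal onwards from these receptors were mostly measured, and their counts are given by the same rule and against the same 54.5%. That share was 39.3% for genes with 1 probe set and 80.5% for genes with 4. The lists were not matched on the number of probe sets, and some of their genes, such as Plcb1 with 5, had several. Downstream of alpha1 receptors such as that of Adra1b, some but not all alpha subunit genes of the Gq class passed. Gna11 and Gnaq were above background, with log2 intensities of 11.19 ± 0.01 and 10.08 ± 0.11 (SD, n = 3). Gna15, with a level of 6.29 ± 0.09, and Gna14, with 6.01 ± 0.04 (SD, n = 3), belong to the same class and fell short of it. In the phospholipase C and inositol trisphosphate arm, 8 of 10 genes were above background, among them the phospholipase gene Plcb1 at 10.12 ± 0.06 (SD, n = 3). Downstream of alpha2 receptors such as that of Adra2c, 3 of 5 Gi/o alpha subunit genes were above background, with Gnai2 at 12.08 ± 0.03 and Gnai3 at 10.99 ± 0.04 (SD, n = 3), while Gnai1 was at 6.86 ± 0.08 (SD, n = 3). The adenylyl cyclases are the family through which alpha2 receptors lower and beta receptors raise cyclic AMP. Of these, 4 of 10 genes were above background, with Adcy6 at 10.98 ± 0.06 (SD, n = 3). In the list of Gs and Gq/11 subunits, 3 of 6 were above background, the third being Gnas, which encodes the Gs subunit, at 13.56 ± 0.01 (SD, n = 3). By the median over the probe sets of each gene, the counts for Gi/o subunits, phospholipase C genes and cyclases were 3 of 5, 4 of 10 and 2 of 10. That rule placed 43.9% of all genes above background.
Of the remaining steps, all 7 measured genes of protein kinase A and EPAC were above background, as were all 7 lipolysis effectors and 15 of 18 genes of cyclic AMP-responsive transcription. The receptor kinases, arrestins and RGS proteins had 7 of 11, and 5 of 11 by the median over probe sets, against 43.9% of all genes by that rule. Near the 54.5% of all genes were the cyclic AMP phosphodiesterases, with 8 of 15 or 53.3%, and the genes of catecholamine metabolism. With the 99th percentile as background, 5 of the 15 phosphodiesterase genes were above it, against 48.0% of all genes. Of 9 genes that make, take up or break down catecholamines, 5, or 55.6%, were above background, and 2 by the median over the probe sets of each gene, against 43.9% of all genes by that rule. Most of these counts depend on how the probe sets of a gene are joined. Where every probe set had to pass, 2 of 7 protein kinase A and EPAC genes and 4 of 7 lipolysis effectors were above background. So were 7 of 18 genes of cyclic AMP-responsive transcription, against 31.5% of all genes by that rule. By the median over probe sets, the counts were 5 of 7, 7 of 7 and 10 of 18 in the same order, against 43.9% of all genes.

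Adra1b and Adra2c were set beside other receptor genes. Their nearest relatives, the receptors for dopamine, serotonin, histamine, acetylcholine and trace amines, had 1 of 23 measured genes above background, the serotonin receptor gene Htr1b at 8.87 ± 0.02 (SD, n = 3), where the share of all genes was 54.5%, of genes with 1 probe set 39.3% and of genes with 4 probe sets 80.5%. Adra1b and Adra2c received the same call as 22 of these 23. Among these relatives the count was 0 by the median over probe sets, a rule that placed 43.9% of all genes above background. It was 2 with the 90th percentile (57.5% of all genes), with 2 of 3 arrays or without replicate 2. For the rules with fewer arrays, the share of all genes was not computed. Of 21 other receptor genes that regulate cyclic AMP in fat cells, 6 were above background, among them the short-chain fatty acid receptor gene Ffar2 at 11.07 ± 0.07 and the corticotropin receptor gene Mc2r at 10.61 ± 0.03 (SD, n = 3). No test was made of the difference between these shares, and levels of different genes were not set against each other.

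**Figure D4:**
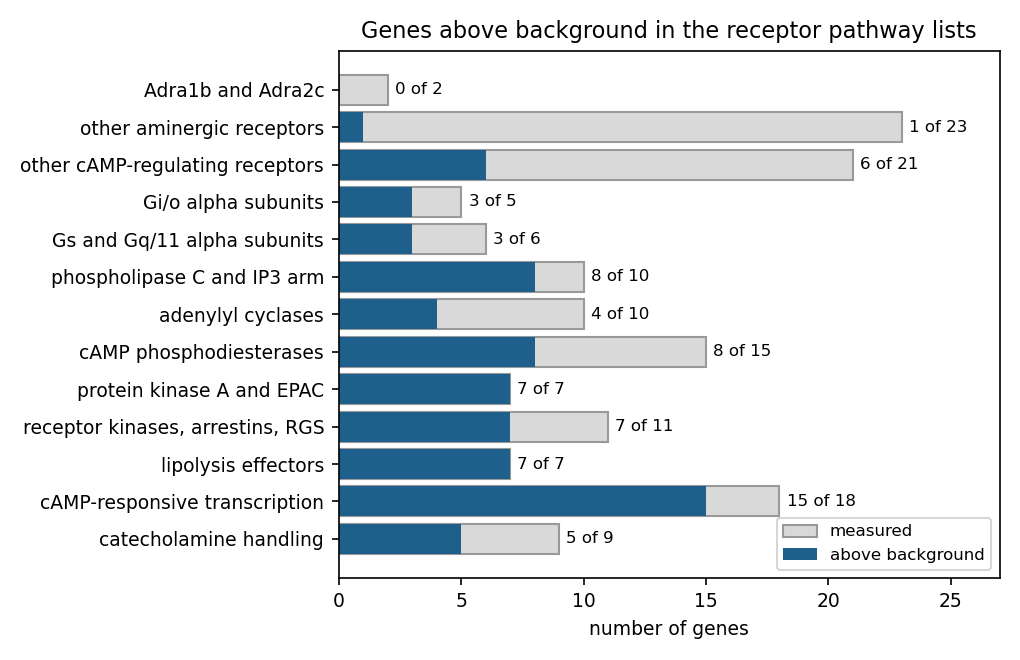
Number of genes (x axis) measured (grey) and above background in all 3 arrays (blue) for Adra1b and Adra2c and for 12 lists of related genes (y axis). The receptor genes stand at 0 of 2 and the other aminergic receptors at 1 of 23, while the lists for protein kinase A and for lipolysis stand at 7 of 7 each.

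The identity of the cells was checked against marker genes, since the tissue label of the samples reads preadipocytes while the growth protocol describes adipocytes. Of 10 measured adipocyte markers, 9 were above background, against 54.5% of all genes. Adipoq was at 14.49 ± 0.03, and the exception was the leptin gene Lep at 5.79 ± 0.04 (SD, n = 3). Of 8 preadipocyte and fibroblast markers, 7 were above background too. Dlk1 was at 13.24 ± 0.10, and the exception was Cd34 at 5.49 ± 0.08 (SD, n = 3). By this rule the markers do not tell the labels apart. The counts for other cell types in which adrenergic receptors are known were 3 of 6 for smooth muscle and pericytes, 2 of 6 for sympathetic neurons, 1 of 5 for endothelium, 2 of 6 for macrophages, 1 of 5 for skeletal muscle and 1 of 6 for brown and beige fat. By the median over the probe sets of each gene, which placed 43.9% of all genes above background, the counts were 1 for smooth muscle and pericytes and 0 for sympathetic neurons and for brown and beige fat. The count for sympathetic neurons was 1 with the 99th percentile, against 48.0% of all genes. With keratin-associated protein and defensin genes as background it was also 1, against 49.7%. It was 1 without replicate 3 or with a background without pseudogenes, and 0 without probe sets of the suffixes _x_at and _s_at. For these latter rules the share of all genes was not computed. The brown fat gene Ucp1 was at 6.17 ± 0.04 (SD, n = 3). The part of such cells in the Adra1b and Adra2c values was not tested.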

How the data were processed

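RNA from 3 samples of glucose oxidase-treated 3T3-L1 adipocytes was measured on mouse4302 arrays. The authors applied RMA background correction and normalization in affyPLM (version not stated). The deposited values are probe set intensities on a linear scale, whereas RMA usually gives log2 values, so log2 was taken of them as deposited. Any later scaling or centring, and which arrays were normalized together, stay unknown. Precision is limited by the number of arrays.
In the platform annotation, 34958 of the 45101 probe sets had 1 gene, 932 several and 9211 none, and only those with 1 gene were used for names. Through Entrez identifiers 34754 matched RefSeq genes of GRCm38.p6 and 0 symbols changed. Each gene was given the level of its brightest probe set. With 1 group, no test was made. The receptor genes, the 12 pathway lists and the 8 marker lists were chosen with earlier results of these data known. All probe sets of the receptor genes were named, in each pathway list at most the 4 brightest genes above background and 3 below, and in each marker list at most 2 of each. Ucp1 was named from the pathway list for cyclic AMP-responsive transcription. The motifs were chosen after the data were seen. Alternatives used background percentiles of 90 and 99, other background genes, other ways to join the probe sets of a gene, fewer arrays, fewer kinds of probe set and centring. Python 3.11.15 with pandas 2.3.3, numpy 2.4.6 and matplotlib 3.10.9 was used.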

Additional observations from a re-analysis of the deposited data

How the results depend on the processing

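No paired analysis was possible because there is only 1 group of samples. The count of adrenergic receptor genes above background was 0 under all 13 alternatives. Several of them could only repeat the call, since no receptor value exceeded 7.57 in any array. These were the higher percentile, keratin-associated protein and defensin genes as background (7.91), and the median over probe sets. They also included the rule that every probe set had to pass and a call in at least 2 of 3 arrays. The 90th percentile (7.38) lowered the cutoff and could have changed the call. Another alternative, a background without pseudogenes, was chosen after the data were seen. Adra1b gave no value without probe sets of the suffixes _x_at, _s_at and _a_at, since its single probe set ends in _a_at, which marks alternative transcripts of 1 gene. With only the suffixes _x_at and _s_at left out, an alternative also chosen after the data were seen, the gene stayed in and the count was 0. No receptor probe set was above background, so the spread over such probe sets gave no value. The level of Adra2c, 7.10, was 5.76 with the median of its probe sets, because the other 3 are dimmer. On leaving out each array in turn it ranged from 7.06 to 7.16, that of Adra1b from 7.05 to 7.11, and the median SD of the receptor probe sets from 0.069 to 0.116, the lowest value being without replicate 3. Of the 142 different genes measured in the pathway lists, 74, or 52.1%, were above background, against 54.5% of all genes. If every probe set of a gene had to pass, 33 of the 142 were, against 31.5% of all genes. Of 156 counts for single pathway lists, 134 stayed within 1.5 times their value. Of the 20 pathway and marker lists, however, 16 moved further than this under at least 1 alternative. By rule, 16 did so where every probe set had to pass and 8 by the median over probe sets. Signal close to background limits what can be said of Adra1b and of the brightest Adra2c probe set.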
